A study of Mus musculus with 12 samples.

Results

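The 39 genes described here encode plasma proteins of the complement system (19 genes) and of blood coagulation (20 genes). They were listed by symbol and found by gene identifier in a table of expected counts for 51912 mouse genes. Of the 39 genes, 38 passed the filter on low counts, 18 of complement and 20 of coagulation, among 8594 genes that passed in all. The exception was Masp1, a protease of the lectin pathway of complement, with counts between 1 and 11 per library.

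Complement is a cascade of plasma proteases and binding proteins that marks microbes and cells. It is started by the classical, lectin or alternative pathway, meets at the cleavage of C3 and ends in the membrane attack complex. Coagulation is a second protease cascade, in which thrombin turns fibrinogen into fibrin, and plasmin later dissolves the clot. Hepatocytes make most of these proteins and secrete them into plasma. Fibrinogen, C3 and several other members are also acute phase proteins, whose synthesis in liver rises with interleukin signals during inflammation.

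The study asked what the nuclear receptor CAR contributes to the response of liver to CITCO, an activator of human CAR. Liver RNA of 12 adult male mice was sequenced, 3 mice in each of 4 groups. WT mice received corn oil, the vehicle, or CITCO. hCAR/hPXR mice, which carry human CAR and human PXR in place of the mouse genes, received CITCO, as did Car KO/hPXR mice, in which mouse Car is deleted and human PXR stands in for mouse Pxr. The deleted and humanised alleles were made on a C57BL/6NTac background. CITCO was injected at 10 mg/kg by the labels (a higher dose is also named in the methods), daily for 4 days, with the mice killed on day 5. Both humanised groups carry human PXR, and corn oil libraries of humanised mice were not analysed here. Genotype and treatment therefore cannot be told apart when a humanised group is set against WT corn oil. Between groups given CITCO, a genotype difference present without CITCO cannot be told apart from a difference in response.

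Total counts per library ranged from 1167027 to 2341572, so that a count of 3 was worth 1.34 to 2.50 CPM (counts per 1e+06 after normalization). Nr1i2, the mouse Pxr gene, had counts between 100 and 199 in WT mice and between 0 and 2 in humanised mice, and Nr1i3, the mouse Car gene, had counts between 104 and 287 and between 0 and 6. All 6 hepatocyte markers checked, among them Alb, were detected. Calls were made by edgeR's quasi-likelihood test, at a Benjamini-Hochberg adjusted p-value (over 8594 genes) below 0.05 together with a change of more than 1.5-fold. The labels do not say more about replicates than that they are separate samples, so p-values measure the spread between these libraries.

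Most of the 38 genes differed little between the groups. The ratio of the highest to the lowest group mean had a median of 1.29 and was under 1.2 for 11 genes and over 1.5 for 8. At the low end stood coagulation factor F7, with a ratio of 1.08, and at the high end the terminal complement gene C6, with a ratio of 2.01. Counting over the 4 groups together, 0 of 38 genes were called by edgeR, against 1.42% of all genes tested. An unadjusted p-value under 0.05 was reached by 11 of the 38, against 11.6% of all genes. DESeq2's likelihood ratio test called 6 (Fga, Fgb, Fgg, Cfb, Hc and C6), and limma called 0. The share for DESeq2 was 4.21% of the 4893 genes that kept an adjusted p-value after its own filter. Pairwise, the only calls by edgeR were those of Fga and Fgb in the comparison of hCAR/hPXR CITCO with WT corn oil, 2 of 38 genes (5.26%) against 0.989% of all genes tested.

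**Figure D1:**
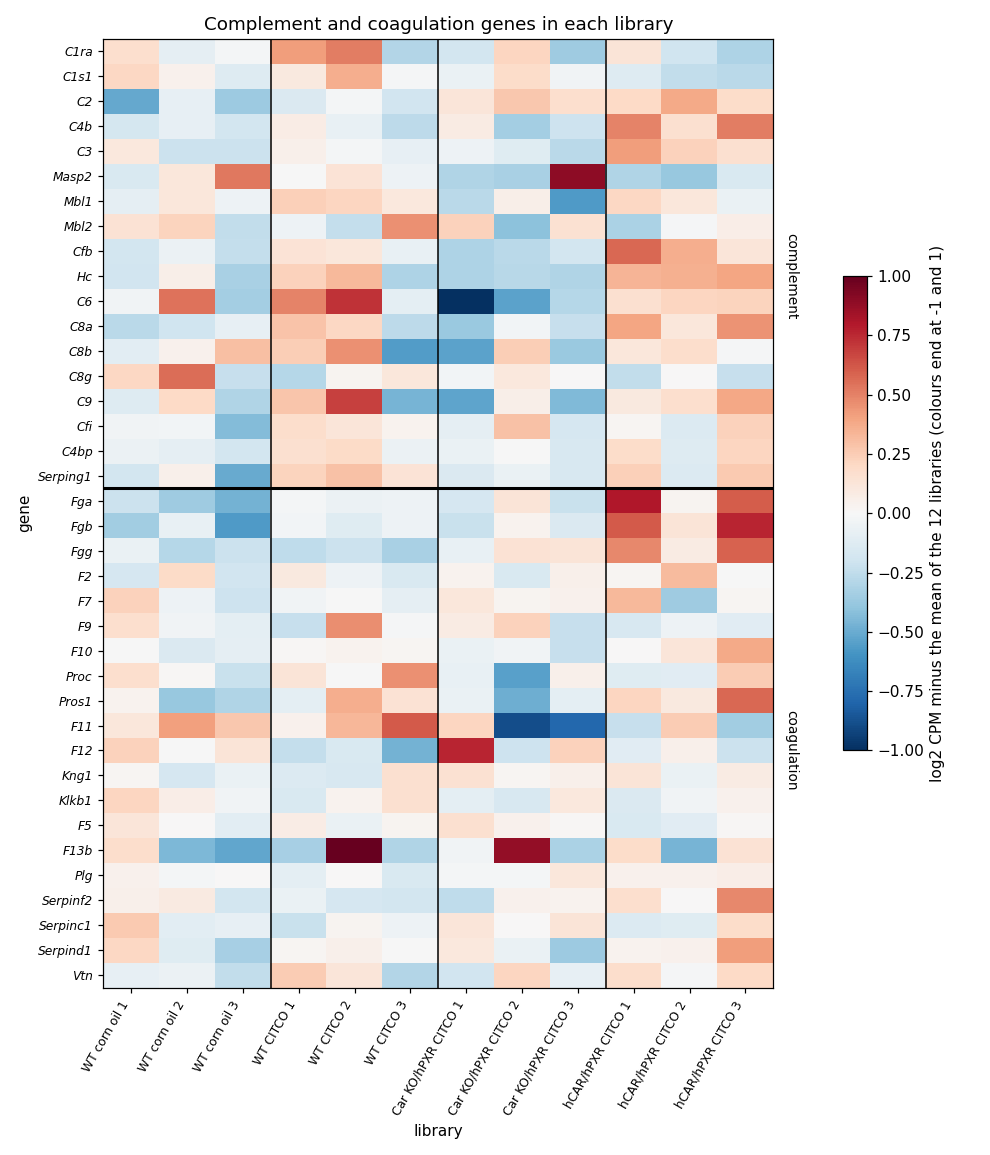
Log2 CPM of the 38 tested genes (rows) in each of the 12 libraries (columns), minus each gene's mean over the libraries. Complement genes stand above the thick line and coagulation genes below it, thin lines separate the groups, and the strongest block of high values is that of Fga, Fgb and Fgg in hCAR/hPXR replicates 1 and 3.

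The Aα, Bβ and γ chains of fibrinogen, the precursor of fibrin, are encoded by Fga, Fgb and Fgg. The genes lie side by side within 42.1 kb on chromosome 3 of GRCm38: Fgg from 83007724 to 83015049, Fga from 83026076 to 83033627 and, on the opposite strand, Fgb from 83040141 to 83049863. Fga had 2103, 1911 and 1764 CPM in the WT corn oil libraries and 2407, 2347 and 2351 CPM in the WT CITCO libraries. It had 2168, 2664 and 2098 CPM in Car KO/hPXR mice and 4242, 2493 and 3713 CPM in hCAR/hPXR mice. The hCAR/hPXR libraries lay above every WT library, and their replicate 2 lay below Car KO/hPXR replicate 2. Fga was 1.81-fold higher in hCAR/hPXR mice than in WT corn oil mice, a log2 difference of 0.85 with an SE of 0.19 (adjusted p = 0.0393, edgeR).

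Fgb had 1792, 2167 and 1544 CPM in WT corn oil, 2247, 2104 and 2211 CPM in WT CITCO, 1961, 2342 and 2071 CPM in Car KO/hPXR and 3504, 2498 and 3884 CPM in hCAR/hPXR libraries. All 3 hCAR/hPXR libraries lay above the other 9. The rise over WT corn oil was 1.80-fold, a log2 difference of 0.85 with an SE of 0.19 (adjusted p = 0.0381, edgeR). The difference of 3 libraries from 3 gave p = 0.1 for Fga and for Fgb in a two-sided exact permutation test, the smallest value that this design allows.

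Fgg had 2470, 2133 and 2234 CPM in WT corn oil, 2169, 2233 and 2075 CPM in WT CITCO, 2469, 2868 and 2840 CPM in Car KO/hPXR and 3624, 2745 and 3897 CPM in hCAR/hPXR libraries. Both humanised groups lay above WT CITCO with no overlap, and hCAR/hPXR replicate 2 lay among the Car KO/hPXR libraries. The log2 fold change of hCAR/hPXR mice was 0.59 against WT corn oil (adjusted p = 0.146, edgeR), 0.66 against WT CITCO (adjusted p = 0.149, edgeR) and 0.33 against Car KO/hPXR (adjusted p = 0.527, edgeR). None of these passed the threshold in that test, and DESeq2 called Fgg against WT CITCO (adjusted p = 0.000842). For that comparison DESeq2 was the only 1 of 15 alternatives to call Fgg.

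**Figure D2:**
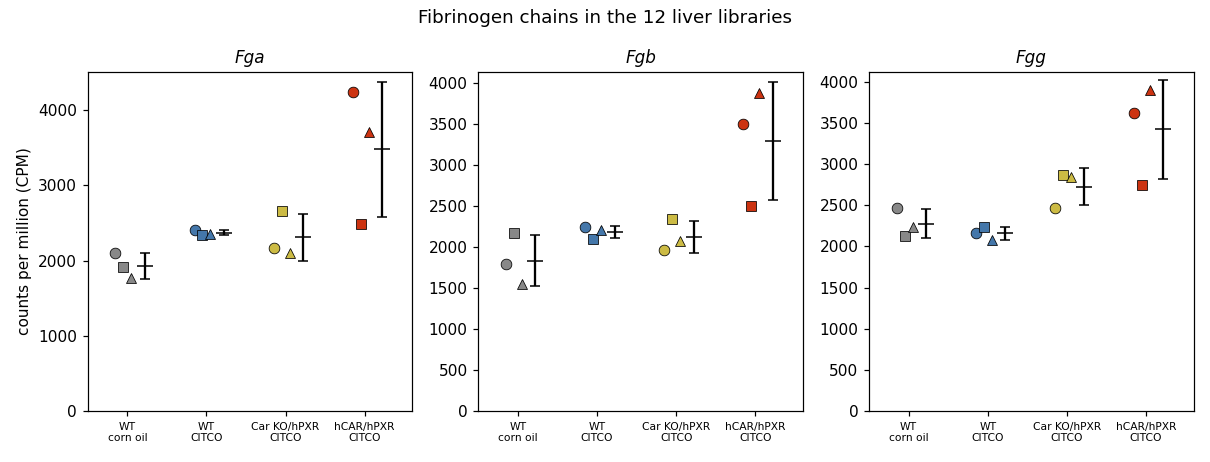
CPM of Fga, Fgb and Fgg in each library by group (circle, square and triangle for replicates 1, 2 and 3), with the mean and SD of the 3 libraries beside the points. In all 3 genes hCAR/hPXR replicate 2 sits well below the other libraries of its group, at 2493, 2498 and 2745 CPM.

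The fibrinogen calls depended on which libraries were used. Leaving out hCAR/hPXR replicate 2, the lowest of its group in all 3 genes, gave log2 fold changes against WT corn oil of 1.04 for Fga, 1.01 for Fgb and 0.72 for Fgg, and all 3 were called (adjusted p = 0.00613, 0.0108 and 0.0499, edgeR). Leaving out hCAR/hPXR replicate 1 or 3, or any of the WT corn oil replicates 1, 2 and 3, left 0 of them called. Across all 15 alternatives the log2 fold change of Fga stayed between 0.68 and 1.04 and that of Fgb between 0.71 and 1.01, and 8 alternatives lost each call (adjusted p up to 0.207 for Fga and 0.214 for Fgb).

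The sequence before the transcription start of each fibrinogen gene is shown because the 3 genes had their highest level in the same 2 libraries. In fibrinogen promoters, elements bound by STAT3, C/EBP and HNF1 factors are known for the interleukin response and for liver expression. The 250 bases before the RefSeq start (GRCm38.p6) are given 5′ to 3′ on the gene's own strand. They span chr3:83007474-83007723 for Fgg (+), chr3:83025903-83026152 for Fga (+) and chr3:83049864-83050113 for Fgb (-). Capitals mark matches on either strand to CTGGGAA (an interleukin response element of STAT3 type), TTCCNGGAA (STAT), GTTAAT (HNF1), TTGCNNAA (C/EBP) or GGGANTTTC (NF-kB).
Fgg: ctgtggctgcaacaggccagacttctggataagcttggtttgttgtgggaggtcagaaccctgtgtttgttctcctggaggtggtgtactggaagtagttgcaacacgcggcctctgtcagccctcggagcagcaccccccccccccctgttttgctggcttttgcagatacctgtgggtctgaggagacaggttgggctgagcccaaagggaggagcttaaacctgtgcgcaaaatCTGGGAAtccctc
Fga: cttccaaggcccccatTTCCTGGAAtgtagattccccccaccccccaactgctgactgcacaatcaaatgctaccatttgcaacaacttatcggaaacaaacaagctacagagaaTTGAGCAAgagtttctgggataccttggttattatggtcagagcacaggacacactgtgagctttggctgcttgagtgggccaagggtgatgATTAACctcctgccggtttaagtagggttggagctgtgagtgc
Fgb: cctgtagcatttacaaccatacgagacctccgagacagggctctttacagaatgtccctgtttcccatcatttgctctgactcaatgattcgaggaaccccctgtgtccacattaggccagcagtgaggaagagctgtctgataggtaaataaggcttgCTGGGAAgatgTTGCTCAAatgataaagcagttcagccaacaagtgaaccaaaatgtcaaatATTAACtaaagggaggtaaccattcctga
GENCODE M21 puts the first base of Fga 77 bases before the RefSeq start, so its last match lies inside the gene in that annotation.

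CTGGGAA was found 13 bases before the start of Fgg and 91 bases before that of Fgb, and TTCCNGGAA 234 bases before that of Fga. A C/EBP match stood 135 bases before the Fga start and 80 before the Fgb start, and an HNF1 match 43 and 29 bases before them. Among 32851 RefSeq windows of the same length, 9.10% held CTGGGAA, 0.913% TTCCNGGAA, 6.43% the HNF1 motif, 9.56% the C/EBP motif and 0.941% the NF-kB motif. RefSeq windows were found for 30 of the 39 genes, 32 windows in all. Of these, 5 held CTGGGAA, 2 TTCCNGGAA (Fga and Pros1), 9 the HNF1 motif, 8 the C/EBP motif and 0 the NF-kB motif. The HNF1 motif was held by 5 of 15 complement windows (C4bp, Hc, C8b, C8a and C1ra) and 4 of 17 coagulation windows (F13b, Fga, Fgb and Vtn). A match describes letters in a window and not a bound site, and the windows of C2, C4b, Cfb, Cfi, Serping1, Masp1, Kng1, Plg and Proc were not used here.

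The vitamin K dependent genes showed little movement. They encode prothrombin (F2), the proteases factor VII (F7), factor IX (F9) and factor X (F10), the anticoagulant protease protein C (Proc) and its cofactor protein S (Pros1). Pros1, on chromosome 16 (62854307 to 62929346), had 94.5, 71.2 and 74.9 CPM in WT corn oil, 86.3, 119 and 102 CPM in WT CITCO, 88.3, 66.0 and 86.2 CPM in Car KO/hPXR and 107, 98.9 and 138 CPM in hCAR/hPXR libraries. The hCAR/hPXR libraries lay above the WT corn oil and the Car KO/hPXR libraries and overlapped with WT CITCO. The log2 fold changes were 0.50 against WT corn oil (adjusted p = 0.298, edgeR) and 0.51 against Car KO/hPXR (adjusted p = 0.328, edgeR), and neither passed. F10 lay just above WT corn oil in all 3 hCAR/hPXR libraries, at 290 ± 39.1 CPM against 243 ± 12.2 CPM (SD, n = 3 each). F2 ranged between 4895 and 6965 CPM, F7 between 109 and 175 CPM and F9 between 160 and 260 CPM. The groups overlapped in F2 and F9, and in F7 all but Car KO/hPXR (146 ± 4.81 CPM), which lay just above WT CITCO (136 ± 4.12 CPM, SD, n = 3 each).

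The contact system genes F11, F12, Klkb1 (plasma kallikrein) and Kng1 (kininogen) start coagulation on surfaces and release bradykinin. F12, on chromosome 13 (55417958 to 55426793), went against most members. It had 960, 812 and 891 CPM in WT corn oil, 692, 735 and 589 CPM in WT CITCO, 1388, 707 and 957 CPM in Car KO/hPXR and 756, 847 and 702 CPM in hCAR/hPXR libraries. WT CITCO lay below WT corn oil with no overlap, at a log2 difference of -0.40 (adjusted p = 0.569, edgeR), and Car KO/hPXR mice were spread widely, with replicate 1 the highest of all 12 libraries. Against WT CITCO the log2 fold change of Car KO/hPXR mice was 0.60 (adjusted p = 0.289, edgeR), and 0.31 without that replicate. F11 had few counts, between 11 and 41 per library. Kng1, which has the close relative Kng2 and expected counts that were not whole in any of the 12 libraries, ranged between 1658 and 2084 CPM and Klkb1 between 392 and 507 CPM, each with a ratio of 1.10 between the highest and lowest group means.

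Among the cofactors and crosslinking proteins, F5 (factor V) was even, between 282 and 350 CPM. F13b, the carrier subunit of the fibrin-crosslinking factor XIII, was the most uneven within groups. It had 479 CPM in WT CITCO replicate 2 and 430 CPM in Car KO/hPXR replicate 2, and between 163 and 265 CPM in the other 10 libraries. Both high values fell in groups whose other libraries were low, and no comparison of F13b passed the test. Plg, whose product plasmin dissolves fibrin, was among the most even genes, between 1610 and 1933 CPM. Its inhibitor Serpinf2 (alpha-2-antiplasmin) had 351 ± 60.5 CPM in hCAR/hPXR and 272 ± 11.8 CPM in WT CITCO mice (SD, n = 3 each), at a log2 difference of 0.37 (adjusted p = 0.489, edgeR). The thrombin inhibitors Serpinc1 (antithrombin, with expected counts that were not whole in any library) and Serpind1 (heparin cofactor II) and the adhesion protein vitronectin (Vtn) had log2 fold changes between -0.05 and 0.25 in hCAR/hPXR mice against WT corn oil.

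In the classical pathway, C1ra and C1s1 encode the proteases of the first component, C4b and C2 the parts of the first C3 convertase, and C3 the protein on which all pathways meet. C4b, on chromosome 17 (34728380 to 34743882), had 939, 1004 and 937 CPM in WT corn oil, 1116, 1007 and 884 CPM in WT CITCO, 1127, 841 and 921 CPM in Car KO/hPXR and 1500, 1189 and 1513 CPM in hCAR/hPXR libraries. All hCAR/hPXR libraries lay above the other 9. The log2 fold changes were 0.54 against WT corn oil (adjusted p = 0.171, edgeR), 0.54 against Car KO/hPXR (adjusted p = 0.203, edgeR) and 0.48 against WT CITCO (adjusted p = 0.342, edgeR), and none passed. The expected counts of C4b were not whole in 11 of 12 libraries. RSEM, the counting tool, divides a read between genes that fit it, and C4a is a close relative. C4b took between 95.6% and 99.1% of the counts of both genes in each library, and the sum of both was 1.44-fold higher in hCAR/hPXR mice than in WT corn oil mice.

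C3 (chromosome 17, 57203970 to 57228136) had 4288, 3439 and 3442 CPM in WT corn oil, 4131, 3941 and 3770 CPM in WT CITCO, 3852, 3676 and 3302 CPM in Car KO/hPXR and 5314, 4686 and 4446 CPM in hCAR/hPXR libraries. Here too the hCAR/hPXR libraries lay above the other 9. The log2 fold changes were 0.37 against WT corn oil, 0.29 against WT CITCO and 0.42 against Car KO/hPXR, and none passed (adjusted p = 0.448, 0.677 and 0.381, edgeR).

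C2 (chromosome 17, 34862604 to 34898265) had 108, 146 and 120 CPM in WT corn oil, 140, 152 and 135 CPM in WT CITCO, 168, 186 and 173 CPM in Car KO/hPXR and 177, 201 and 176 CPM in hCAR/hPXR libraries. C2 was high in both humanised groups, which overlapped with each other and lay above all WT libraries. The log2 fold changes against WT corn oil were 0.57 for hCAR/hPXR (adjusted p = 0.0870, edgeR) and 0.50 for Car KO/hPXR mice (adjusted p = 0.534, edgeR). C1ra and C1s1 were lowest in hCAR/hPXR mice, where C1s1 had 181 ± 9.48 CPM against 234 ± 32.5 CPM in WT CITCO mice (SD, n = 3 each), with the groups not overlapping and a log2 fold change of -0.37 that did not pass. The expected counts of C1ra were not whole in any of the 12 libraries, and C1ra took between 56.8% and 93.1% of the counts of itself and its relative C1rb, so that its values are uncertain. The sum of C1ra and C1rb was lowest in Car KO/hPXR mice (184 ± 16.3 CPM), just below hCAR/hPXR mice (186 ± 10.8 CPM, SD, n = 3 each).

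Cfb, factor B, is the protease of the alternative pathway. It lies next to C2 on chromosome 17 (34856374 to 34862518), on the same strand with 85 bases between the genes, and both overlap with the annotated readthrough gene Gm20547. Cfb had 977, 1069 and 945 CPM in WT corn oil, 1220, 1201 and 1059 CPM in WT CITCO, 896, 922 and 980 CPM in Car KO/hPXR and 1659, 1434 and 1211 CPM in hCAR/hPXR libraries. The hCAR/hPXR libraries lay above WT corn oil and Car KO/hPXR, and the lowest of them fell between the WT CITCO libraries. Against Car KO/hPXR mice the log2 fold change was 0.62 with an SE of 0.16 (adjusted p = 0.0868, edgeR), which DESeq2 called (adjusted p = 0.000520). DESeq2 was the only 1 of 15 alternatives to call it.

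In the lectin pathway, the mannose-binding lectins Mbl1 and Mbl2 and the protease Masp2 gave no call. Mbl1 had 230 ± 49.3 CPM in Car KO/hPXR and 308 ± 15.2 CPM in WT CITCO mice (SD, n = 3 each) without overlap. Masp2 had 300 CPM in Car KO/hPXR replicate 3 and between 124 and 232 CPM in the other libraries. Its expected counts were not whole in 11 of 12 libraries, and it overlaps with Tardbp on the opposite strand, so that its values are uncertain.

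The terminal genes Hc (C5), C6, C8a, C8b, C8g and C9 encode the parts of the membrane attack complex that were listed. C6, on chromosome 15 (4727175 to 4814967), had 129, 193 and 105 CPM in WT corn oil, 187, 220 and 125 CPM in WT CITCO, 63.5, 91.8 and 109 CPM in Car KO/hPXR and 149, 154 and 155 CPM in hCAR/hPXR libraries. The Car KO/hPXR libraries lay below both other groups given CITCO, and the highest of them overlapped with WT corn oil. Against WT CITCO the log2 fold change was -1.01 with an SE of 0.24 (adjusted p = 0.0964, edgeR), the largest of any member in any comparison. It was called by DESeq2 (adjusted p = 0.0103), without a filter on low counts (adjusted p = 6.19e-05, edgeR) and without WT CITCO replicate 3 (log2 fold change -1.22, adjusted p = 0.0233, edgeR). Only these 3 of 15 alternatives called it, and the log2 fold change lay between -1.22 and -0.81 across all 15. With hCAR/hPXR mice against Car KO/hPXR mice the log2 fold change was 0.80 (adjusted p = 0.196, edgeR).

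Hc, on chromosome 2 (34983331 to 35061438), had 248, 295 and 225 CPM in WT corn oil, 331, 355 and 229 CPM in WT CITCO, 229, 233 and 230 CPM in Car KO/hPXR and 357, 361 and 371 CPM in hCAR/hPXR libraries. The libraries of each humanised group lay close together, and hCAR/hPXR lay above the other 9. Against Car KO/hPXR mice the log2 fold change was 0.65 with an SE of 0.17 (adjusted p = 0.0853, edgeR), called by DESeq2 (adjusted p = 0.0106) and without a filter on low counts (adjusted p = 0.0325, edgeR). Only these 2 of 15 alternatives called it.

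C8a, on chromosome 4 (104815679 to 104876398), had 401, 420 and 456 CPM in WT corn oil, 588, 558 and 402 CPM in WT CITCO, 373, 475 and 413 CPM in Car KO/hPXR and 636, 524 and 661 CPM in hCAR/hPXR libraries. The hCAR/hPXR libraries lay above WT corn oil and Car KO/hPXR and overlapped with WT CITCO. The log2 fold changes were 0.51 (adjusted p = 0.209, edgeR) and 0.53 (adjusted p = 0.219, edgeR). WT CITCO replicate 3 was the lowest of its group in 5 of the 6 terminal genes: C9 had 708, 938 and 424 CPM in that group and C8b 359, 414 and 205 CPM. C8g went the other way, with 523 CPM in that library against 398 and 492 CPM.

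**Figure D3:**
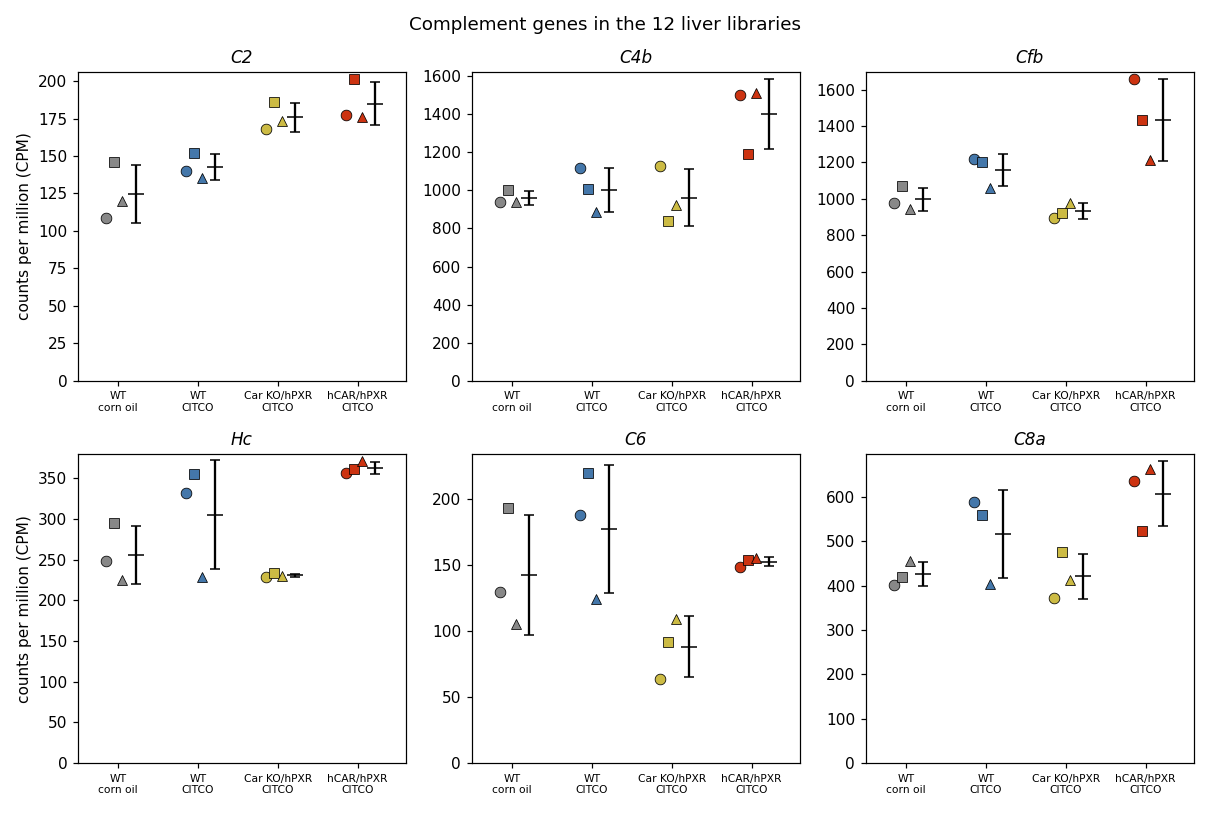
CPM of C2, C4b, Cfb, Hc, C6 and C8a in each library by group (circle, square and triangle for replicates 1, 2 and 3), with the mean and SD of the 3 libraries beside the points. C2 is high in both humanised groups, C4b and Hc are highest in hCAR/hPXR mice, and C6 is lowest in Car KO/hPXR mice, at 63.5 to 109 CPM.

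The complement regulators Cfi (factor I), C4bp (C4b-binding protein) and Serping1 (C1 inhibitor) all lay above WT corn oil in all 3 WT CITCO libraries, as did 6.88% of all genes tested. Serping1 had 418, 491 and 334 CPM in WT corn oil and 555, 579 and 521 CPM in WT CITCO libraries, with no overlap and a log2 difference of 0.41 (adjusted p = 0.412, edgeR). It was the only member with an unadjusted p-value under 0.05 in the comparison of WT CITCO with WT corn oil.

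Complement and coagulation genes were then set side by side in each comparison. For WT CITCO against WT corn oil, 16 of 18 complement genes and 13 of 20 coagulation genes were higher, with median log2 fold changes of 0.20 and 0.06, beside -0.00028 for all genes tested. For hCAR/hPXR against WT CITCO mice, 6 of 18 complement and 14 of 20 coagulation genes were higher, with medians of -0.04 and 0.11. For Car KO/hPXR against WT CITCO mice, 3 of 18 and 9 of 20 were higher, with medians of -0.24 and -0.03. Complement lay on the high side in WT CITCO replicates 1 and 2 and in hCAR/hPXR mice. Its median log2 CPM, relative to the mean of the 12 libraries, was 0.17, 0.20 and -0.08 in WT CITCO libraries. In hCAR/hPXR libraries it was 0.17, 0.11 and 0.17. Of its 18 genes, 10 had their highest group mean in WT CITCO mice, where 25.1% of all genes tested had theirs. Another 6 had theirs in hCAR/hPXR mice. Coagulation had its highest group mean in hCAR/hPXR mice for 10 of 20 genes, where 27.9% of all genes tested had theirs.

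In the other 3 comparisons the lists were set side by side likewise. For hCAR/hPXR against Car KO/hPXR mice, 13 of 18 complement and 13 of 20 coagulation genes were higher (medians 0.27 and 0.14). Against WT corn oil, hCAR/hPXR mice were higher in 13 of 18 and 14 of 20 genes (medians 0.20 and 0.14), and Car KO/hPXR mice in 6 of 18 and 13 of 20 (medians -0.04 and 0.04). These comparisons share groups with those above, so their values are not independent. For all genes tested, the median log2 fold change lay between -0.0039 and 0.013 over the 6 comparisons. Between 4258 and 4433 of the 8594 genes were higher.

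**Figure D4:**
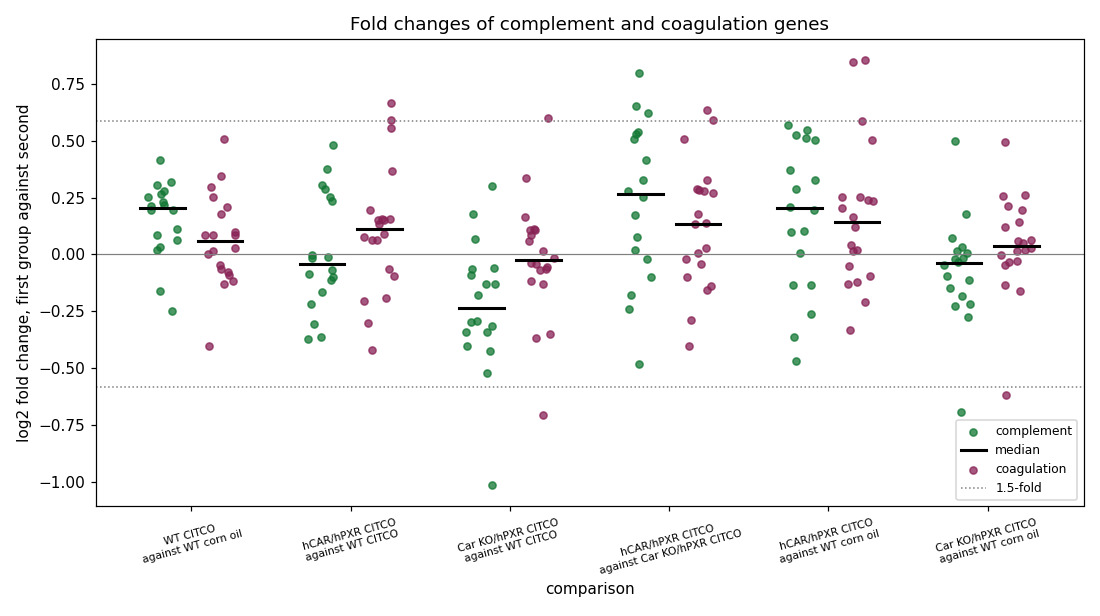
Log2 fold changes of the 18 complement and 20 coagulation genes in the 6 comparisons, 1 point per gene, with the median of each list as a bar and the 1.5-fold limits dotted. The complement median is highest for hCAR/hPXR against Car KO/hPXR, at 0.27, and lowest for Car KO/hPXR against WT CITCO, at -0.24.

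Calls in the other comparisons were few for the members and for all genes. Counts of members are out of 38, and the shares in brackets are of all genes. DESeq2's shares are of the genes that kept an adjusted p-value after its own filter, between 4115 and 8776 by comparison. They therefore have unlike bases. In WT CITCO against WT corn oil, edgeR called 0 members (0.233% of all genes), DESeq2 0 (0.501%) and limma 0. By edgeR 1 member reached an unadjusted p-value under 0.05 (9.13% of all genes). In hCAR/hPXR against WT CITCO, edgeR called 0 (0.407%), DESeq2 1, Fgg (0.729%), and limma 0, and 7 reached an unadjusted p-value under 0.05 (8.81%). In Car KO/hPXR against WT CITCO, edgeR called 0 (0.256%), DESeq2 1, C6 (1.63%), and limma 0, and 7 reached an unadjusted p-value under 0.05 (9.30%).

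In hCAR/hPXR against Car KO/hPXR, edgeR called 0 (0.582%), DESeq2 3, Fgb, Cfb and Hc (2.41%), and limma 0, and 10 reached an unadjusted p-value under 0.05 (10.6%). In hCAR/hPXR against WT corn oil, DESeq2 called the same 2 genes as edgeR (2.89%) and limma 0, and 10 reached an unadjusted p-value under 0.05 (10.9%). In Car KO/hPXR against WT corn oil, edgeR called 0 (0.0465%), DESeq2 0 (0.198%) and limma 0, and 2 reached an unadjusted p-value under 0.05 (5.6%).

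Groups of libraries that did not overlap were also counted. All 3 hCAR/hPXR libraries lay above all 3 WT corn oil libraries in 13 of 38 members, 6 of complement and 7 of coagulation, against 8.49% of all genes tested. In 0 members did they lie below WT corn oil (7.68% of all genes). They lay above all WT CITCO libraries in 9 members (7.12%) and below them in 2, C1s1 and Masp2 (6.53%). They lay above all Car KO/hPXR libraries in 10 members (8.01%) and below them in 2, C1s1 and F5 (7.06%). In 4 members (C4b, C3, Hc and Fgb) they lay above all other 9 libraries, against 1.42% of all genes. The Car KO/hPXR libraries lay below all WT CITCO libraries in 5 members (6.77% of all genes) and above them in 3, C2, F7 and Fgg (7.45%). Against WT corn oil they lay above in 1, C2 (5.63%), and below in 0 (6%). The WT CITCO libraries lay above WT corn oil in 5 members, the 3 complement regulators with F10 and Fga (6.88%), and below it in 1, F12 (7.85%).

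Sums over genes were compared with and without C3 and fibrinogen, which took many of the counts. The 19 complement genes summed to between 12254 and 13611 CPM in hCAR/hPXR libraries and between 9577 and 11975 CPM in the other 9. Without C3, the hCAR/hPXR libraries (7568 to 8297 CPM) overlapped with WT CITCO (6560 to 8035 CPM) and still lay above WT corn oil (6135 to 7304 CPM) and Car KO/hPXR libraries (6222 to 6615 CPM). The 20 coagulation genes summed to between 24325 and 27867 CPM in hCAR/hPXR libraries and between 19777 and 23026 CPM in the others. Without the fibrinogen genes, hCAR/hPXR libraries (15698 to 16589 CPM) overlapped with Car KO/hPXR (15024 to 16407 CPM) and WT corn oil libraries (14235 to 15745 CPM), and still lay above WT CITCO libraries (14550 to 15464 CPM). The fibrinogen genes alone took between 0.775% and 1.18% of all counts in hCAR/hPXR libraries and between 0.573% and 0.751% in the others. In bulk liver, fewer cells of a type and less RNA per cell cannot be told apart.

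Other genes of the same pathways were listed beside the members. Of these 45 genes, 27 passed the filter, and only Serpina10 was called in any comparison. It encodes the protein Z-dependent inhibitor of factor Xa. Serpina10 had 316, 375 and 428 CPM in WT corn oil, 562, 479 and 389 CPM in WT CITCO, 335, 320 and 352 CPM in Car KO/hPXR and 730, 592 and 621 CPM in hCAR/hPXR libraries. The hCAR/hPXR libraries lay above the other 9, and the gene was 1.93-fold higher than in Car KO/hPXR mice (adjusted p = 0.0119, edgeR) and 1.74-fold higher than in WT corn oil mice (adjusted p = 0.0207, edgeR).

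Acute phase genes that are not members moved more. Of 28 listed, 26 were tested. In hCAR/hPXR mice 15 were called higher than in WT corn oil mice, against 0.989% of all genes called in either direction. There 6 were called higher than in Car KO/hPXR mice (0.582%) and 2 higher than in WT CITCO mice (0.407%), with 0 called lower. In WT CITCO against WT corn oil mice 2 were called higher (0.233%), and 21 of the 26 were higher. Their median log2 CPM, relative to the mean of the 12 libraries, was -0.33, -0.40 and -0.61 in WT corn oil, 0.30, 0.27 and -0.38 in WT CITCO, -0.27, -0.01 and -0.40 in Car KO/hPXR and 1.07, 0.23 and 0.60 in hCAR/hPXR libraries. WT CITCO replicate 3 and hCAR/hPXR replicate 2 were the lowest of their groups here. WT CITCO replicate 3 was also the lowest of its group in most terminal complement genes, but not in Fga and Fgb. The hCAR/hPXR replicate 2 was the lowest of its group in fibrinogen, but not in most terminal complement genes. The part of these libraries and of the acute phase genes in the members' differences was not tested.

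**Figure D5:**
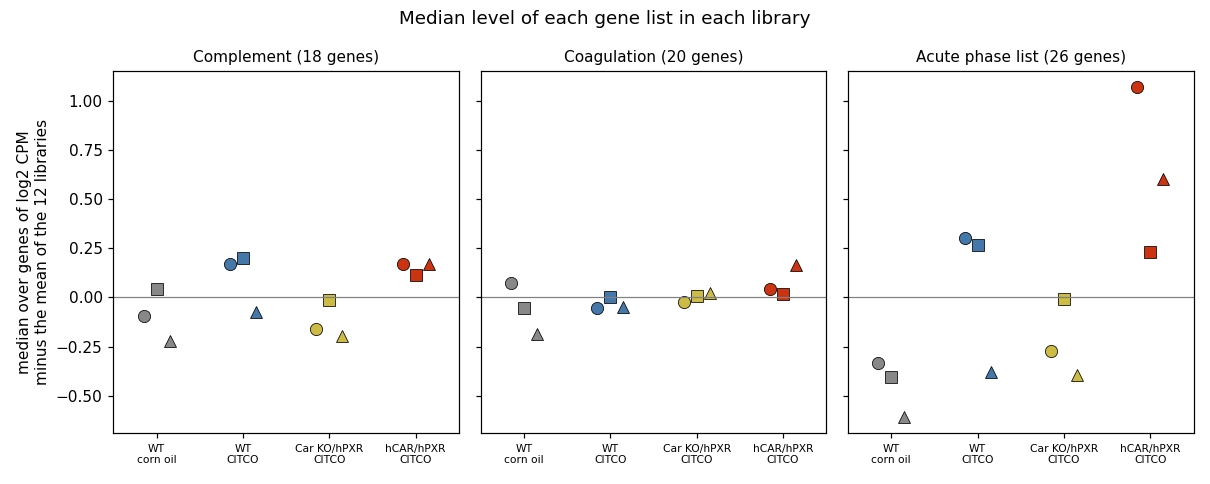
Median over genes of log2 CPM minus each gene's mean of the 12 libraries, for complement, coagulation and acute phase genes, by group (circle, square and triangle for replicates 1, 2 and 3). Acute phase genes span -0.61 to 1.07, complement genes -0.22 to 0.20 and coagulation genes -0.19 to 0.16, and the triangle of WT CITCO lies low for complement and for acute phase genes.

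Markers of other cells also differed between the groups, in both directions. The 5 neutrophil markers summed to between 34.7 and 50.0 CPM in hCAR/hPXR libraries and between 3.58 and 11.7 CPM in the others. Of the 5, 4 had their highest group mean in hCAR/hPXR mice and 2, S100a8 and S100a9, passed the filter. By edgeR, both were called higher in hCAR/hPXR than in WT corn oil mice (0.989% of all genes called in either direction). Against WT CITCO mice 1 of the 2 was called higher (0.407%), and against Car KO/hPXR mice 1 (0.582%). The 6 Kupffer cell and macrophage markers summed to between 324 and 412 CPM in hCAR/hPXR, 211 and 281 CPM in WT corn oil, 250 and 387 CPM in WT CITCO and 286 and 308 CPM in Car KO/hPXR libraries. Cd5l made up much of that sum, at 230 ± 50.9 CPM in hCAR/hPXR mice (SD, n = 3). In hCAR/hPXR mice 2 of the 6 had their highest group mean, 4 of the 6 were lower than in WT CITCO mice, and 1, Marco, was called higher than in WT corn oil (adjusted p = 0.0202, edgeR).

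Some other sums or means were lower in hCAR/hPXR mice. The 6 markers of sinusoidal endothelium summed to at most 220 CPM in hCAR/hPXR libraries, below all others (224 to 271 CPM). Kdr made up much of that sum, at 97.4, 119 and 100 CPM in hCAR/hPXR libraries. Of the 6, 5 were lower than in WT CITCO mice and 5 lower than in WT corn oil mice. Against Car KO/hPXR mice 4 were higher and 2 lower, and 0 were called in these comparisons. The 5 red blood cell markers had lower means in hCAR/hPXR mice than in each other group and summed to between 1859 and 2192 CPM, against 1987 to 3985 CPM in WT CITCO and 2298 to 3882 CPM in WT corn oil libraries. Among them Alas2 was called lower than in WT corn oil (adjusted p = 0.0264, edgeR). The 6 hepatocyte markers summed to 17990, 18310 and 30966 CPM in hCAR/hPXR libraries, which straddled the 22655 to 28429 CPM of the others. Alb made up much of that sum, at 7649, 9498 and 20006 CPM in hCAR/hPXR libraries, and Apob had 521, 423 and 500 CPM there. None of these markers was at 0 in all libraries, and their part in the members' differences was not tested.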

How the data were processed

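Liver RNA of 12 mice was made into 3′ end libraries (QuantSeq), with groups from GEO's labels. Expected counts were deposited for 51912 genes, per the labels and methods obtained with FastQC 11.7, Trimmomatic, STAR 2.5.2 and RSEM 1.3 on GRCm38. The authors also deposited log2-scale values for 17859 genes from DESeq2's variance-stabilising transformation, which were used for symbols and as an alternative. RSEM divides reads between similar genes, and reads near the 3′ end do not scale with gene length. Differences were tested between groups and never between genes.

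Rounded expected counts were tested with edgeR 4.0.16 under R 4.3.3 (filterByExpr, TMM, quasi-likelihood test, 1 mean per group over 12 libraries, Benjamini-Hochberg adjustment over all genes kept). The script was tested on simulated data. Standard errors were derived from the F statistic. Alternatives were other size factors, DESeq2 1.42.0, limma 3.58.1 on the deposited log2 values, other filters, fits of only the groups compared, a replicate block, no fold limit, and leaving out each library.

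The members, gene lists and tests were chosen with earlier results of these data known, so no p-value over a list is given. Members named with full values were those called, the fibrinogen genes, C3 and those with an unadjusted p-value under 0.05 over the 4 groups. Other members were described by role with their values seen. Outside the members, genes of the lists that were called could be named. Coordinates are from GENCODE M21 and promoter windows from RefSeq, both of GRCm38, and protein sequences were not used here. CPM values of 3 counts mark the floor, which covers counting error only. Between any 2 libraries at least 95.9% of the genes tested differed in count, so none was taken for a repeat deposit. No column was left without a sample.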

Additional observations from a re-analysis of the deposited data

How the results depend on the processing

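Calls of members changed with the test more than their direction did. DESeq2 called 1 member in hCAR/hPXR against WT CITCO, 1 in Car KO/hPXR against WT CITCO, 3 in hCAR/hPXR against Car KO/hPXR and 6 over the 4 groups, where edgeR called 0 in each. Without a filter on low counts these were 1 in Car KO/hPXR against WT CITCO (C6), 2 in hCAR/hPXR against Car KO/hPXR (Hc and C6) and 3 over the 4 groups (Fga, Fgb and C6). For hCAR/hPXR against WT corn oil, with 2 members called, fitting only the groups compared gave 0 and limma on the deposited values gave 0. Leaving out each library gave between 0 and 3 calls there (3 without hCAR/hPXR CITCO replicate 2), between 0 and 1 in Car KO/hPXR against WT CITCO (1 without WT CITCO replicate 3) and between 0 and 2 over the 4 groups (Hc alone without WT CITCO replicate 3, Fga and Fgb without hCAR/hPXR replicate 2). Shares of all genes called without the filter, or without a library, are not given here. These counts therefore cannot be set against all genes. Leaving out single libraries also moved the median log2 fold change of the members. For Car KO/hPXR against WT CITCO (-0.07) it lay between -0.16 (without Car KO/hPXR replicate 2) and -0.049, with -0.13 without WT CITCO replicate 1 or 3. For WT CITCO against WT corn oil (0.09) it reached 0.17 without WT corn oil replicate 1, 0.14 without its replicate 2 and 0.15 without WT CITCO replicate 3. For hCAR/hPXR against WT CITCO (0.06) it was 0.034, 0.10 and 0.011 without hCAR/hPXR replicates 1, 2 and 3, and 0.042 and 0.12 without WT CITCO replicates 1 and 2. For hCAR/hPXR against WT corn oil (0.18) it was 0.10 without hCAR/hPXR replicate 3 and 0.11 without WT corn oil replicate 3. For Car KO/hPXR against WT corn oil it lay on both sides of 0 (-0.04 to 0.05). With the replicate number as a block, 0 members were called in hCAR/hPXR against WT corn oil. The labels do not say that numbers pair the mice. Same-numbered libraries of different groups had correlations of their deviations between -0.06 and 0.07, 0 of 18 over 0.1, while 8 of 12 libraries correlated best with their own number. Other size factors, the stricter filter and no fold limit kept both calls, and no called value changed sign. The cause of these changes was not tested. Libraries of 1167027 to 2341572 counts limit what can be said of Masp1 and F11.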
